A study of Homo sapiens with 16 samples.

Results

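The homeobox genes of the 4 human HOX clusters were examined in MDA-MB-231 cells, a human breast adenocarcinoma line of mesenchymal character, by ATAC-seq, an assay in which a transposase cuts open chromatin and the cuts are counted by sequencing. The members were 38 listed HOX genes, 10 in HOXA on chromosome 7, 10 in HOXB on chromosome 17, 9 in HOXC on chromosome 12 and 9 in HOXD on chromosome 2, of 20037 protein-coding genes in the gene table used here. Peaks of open chromatin were assigned to them when the summit lay in a gene body or within 5 kb of one (GRCh38), a window of 452 kb in all. It held 207 of the 477967 peaks in 4 peak lists.

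HOX proteins are transcription factors that give cells their position along the body axis, and their genes stand in each cluster in the order in which they are used from head to tail. Where HOX genes are off, the clusters are commonly covered by Polycomb repression, and trithorax complexes keep them open where they are on. Adult epithelia and carcinomas keep some of the embryonic HOX pattern, and single members such as HOXA9, HOXB13 and HOXC10 are studied in cancer.

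The cells carried no engineered change (genotype labelled WT) and were grown on polyacrylamide gels coated with type I collagen. The 4 groups, each of 4 samples, were ancestral on soft (1 kPa), ancestral on stiff (308 kPa), selected on soft (1 kPa) and selected on stiff (308 kPa). Selection meant serial passage on gels of one stiffness for 75 days; the study's design text speaks of soft-selected cells, and the labels do not say on which gel the cells called selected on stiff had been selected. Nor do they say whether the 4 samples of a group came from separate cultures or separately selected populations.

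One peak list was deposited per group, so no spread between samples could be computed, no test was possible, and every difference below compares lists. The lists held 109578, 116043, 129755 and 122591 peaks in the order ancestral on soft, ancestral on stiff, selected on soft and selected on stiff; the same order is kept for all sets of 4 values. Signal is given as the pileup, the number of fragments or reads stacked at the summit, divided by the median pileup of the same list, which was 111, 132, 51 and 56. The lowest pileup in a list was 31, 37, 27 and 26, or 0.279, 0.280, 0.529 and 0.464 of the median, so the selected lists hold shallower peaks in absolute pileup and a narrower range below the median. Among markers of the line, VIM, EGFR, CAV1, MSN and ZEB1 had a peak at the gene start in each list, while PTPRC of blood cells and ALB of liver had none in any list.

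Sequences upstream of HOX gene starts show the 2 kinds of promoter that the lists separated. RefSeq promoter windows (GRCh38.p14) were at hand for 20 of the 38 genes, at 26 distinct starts. A peak overlapped the 250 bases before 4 of these starts in all 4 lists (HOXA13, HOXD1, HOXD4 and the outer start of HOXA10), and before another 4 in the 2 selected lists but in no ancestral list (HOXA9, HOXD13, HOXD3 and the inner start of HOXA10). At 2 starts 1 selected list alone had a peak, at HOXB1 and HOXD11, and 16 starts had none. The 3 of each kind with the highest signal follow, 5′ to 3′ towards the start, with capitals for matches on either strand to the letters CCAAT, to the GC box core GGGCGG, to the TATA box letters TATAAA and to the CDX-type letters TTTATG; the first 3 were open in all 4 lists and the last 3 in the selected lists only. Apart from the inner start of HOXA10, they were chosen after their values were seen.
HOXA13: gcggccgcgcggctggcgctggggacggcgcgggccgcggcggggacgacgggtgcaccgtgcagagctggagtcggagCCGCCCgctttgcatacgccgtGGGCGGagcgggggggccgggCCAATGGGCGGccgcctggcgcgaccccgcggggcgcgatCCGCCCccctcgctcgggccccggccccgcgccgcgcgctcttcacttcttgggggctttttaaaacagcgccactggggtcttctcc
HOXD1: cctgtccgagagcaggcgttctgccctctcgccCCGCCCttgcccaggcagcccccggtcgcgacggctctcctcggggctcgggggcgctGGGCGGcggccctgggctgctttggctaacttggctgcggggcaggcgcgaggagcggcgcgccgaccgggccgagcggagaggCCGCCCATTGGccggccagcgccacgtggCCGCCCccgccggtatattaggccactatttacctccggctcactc
HOXA10, outer start: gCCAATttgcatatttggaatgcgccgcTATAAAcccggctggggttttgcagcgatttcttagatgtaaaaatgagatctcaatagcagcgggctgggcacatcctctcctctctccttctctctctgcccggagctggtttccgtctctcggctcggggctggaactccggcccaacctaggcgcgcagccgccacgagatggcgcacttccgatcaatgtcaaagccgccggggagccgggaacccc
HOXA9: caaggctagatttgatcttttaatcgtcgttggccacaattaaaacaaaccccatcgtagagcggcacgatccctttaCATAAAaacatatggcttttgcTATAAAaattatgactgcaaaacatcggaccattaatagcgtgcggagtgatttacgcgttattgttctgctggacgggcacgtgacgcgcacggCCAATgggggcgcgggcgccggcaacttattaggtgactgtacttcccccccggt
HOXA10, inner start: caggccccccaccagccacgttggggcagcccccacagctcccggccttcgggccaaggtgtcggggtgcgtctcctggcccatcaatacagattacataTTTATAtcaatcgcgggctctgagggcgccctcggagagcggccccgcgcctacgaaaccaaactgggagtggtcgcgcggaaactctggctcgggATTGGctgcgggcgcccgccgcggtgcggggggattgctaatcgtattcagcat
HOXD13: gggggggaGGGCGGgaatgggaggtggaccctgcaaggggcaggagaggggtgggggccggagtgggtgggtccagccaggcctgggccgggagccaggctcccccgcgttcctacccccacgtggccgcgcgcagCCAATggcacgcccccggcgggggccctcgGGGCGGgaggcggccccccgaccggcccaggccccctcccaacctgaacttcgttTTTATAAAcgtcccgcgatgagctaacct
They lie at chr7:27200092-27200341 (minus strand), chr2:176188418-176188667 (plus), chr7:27179862-27180111 (minus), chr7:27165538-27165787 (minus), chr7:27174321-27174570 (minus) and chr2:176092471-176092720 (plus).

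Both kinds were rich in CG dinucleotides. The 250 bases held 40 CGs at HOXA13, 31 at HOXD1, 19 at the outer HOXA10 start, 20 at HOXA9, 24 at the inner HOXA10 start and 21 at HOXD13. The median was 25 at the 4 starts open in all lists (4 to 40, the lowest at HOXD4), 21 at the 4 open in both selected lists only (20 to 24), 15 at the 16 without a peak (0 to 28) and 11 over all 35116 promoters of the table. CCAAT, the letters bound by the factor NF-Y, was found in 66.7% of the 27 HOX windows, among them all 6 printed here, and in 32.0% of all promoters of the same length. GGGCGG, the core of GC boxes, was in 48.1% and 42.6%, and TATAAA in 18.5% and 10.7%. The CDX-type letters TTTATG were in 11.1% and 9.64%, the HOX and PBX-type letters TGATTNAT in 7.41% and 2.48%, and the AP-1-type letters TGANTCA in none of the 27 and 6.57%. The direct repeat with a 5-base spacer read by retinoic acid receptors was in none of the HOX windows and in 0.00285% of all promoters. HOXC4 and HOXC5 share a window and count as 2 here. These are counts of letters, not sites of binding.

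The 2 selected lists held about 3 times as many HOX peaks as the 2 ancestral lists. The window held 23, 26, 83 and 75 peaks, or 5.09, 5.75, 18.4 and 16.6 per 100 kb, and peaks covered 5.60%, 6.69%, 18.2% and 13.7% of it. The ancestral lists were thus near their own density around other genes and the selected lists well above it: within 5 kb of all other protein-coding genes the density was 4.68, 5.03, 5.95 and 5.64 per 100 kb. In the 5 Mb on either side of the clusters it was 4.89, 5.45, 5.89 and 5.73, and around 70 FOX and SOX genes, also developmental transcription factors, 4.17, 4.32, 5.72 and 5.27.

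The added peaks were weak. HOX peaks reached at least 2 times the list median 10, 11, 11 and 11 times. A −log10 q of at least 10, q being the peak caller's false discovery estimate, was met by 82.6%, 88.5%, 37.3% and 37.3% of them, against 78.7%, 81.4%, 57.5% and 63.2% of all peaks. Among the 54789 peaks of highest −log10 q in each list, HOX peaks numbered 13, 15, 17 and 14. The median HOX pileup over the list median was 1.80, 1.32, 0.824 and 0.714, and the median peak length 1051, 1201, 773 and 636 bp, while the length over whole lists was 806, 826, 818 and 789 bp. In the selected lists HOX peaks were thus lower and shorter than the typical peak. In the ancestral lists the median rested on few peaks (95% intervals from the ranks of the peaks, 0.802 to 3.52 and 0.742 to 3.28) and on the window: in gene bodies alone it was 0.802 and 0.955, and the length 846.5 and 743 bp, while within 2 kb of a body it was 0.941 and 1.22.

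**Figure D1:**
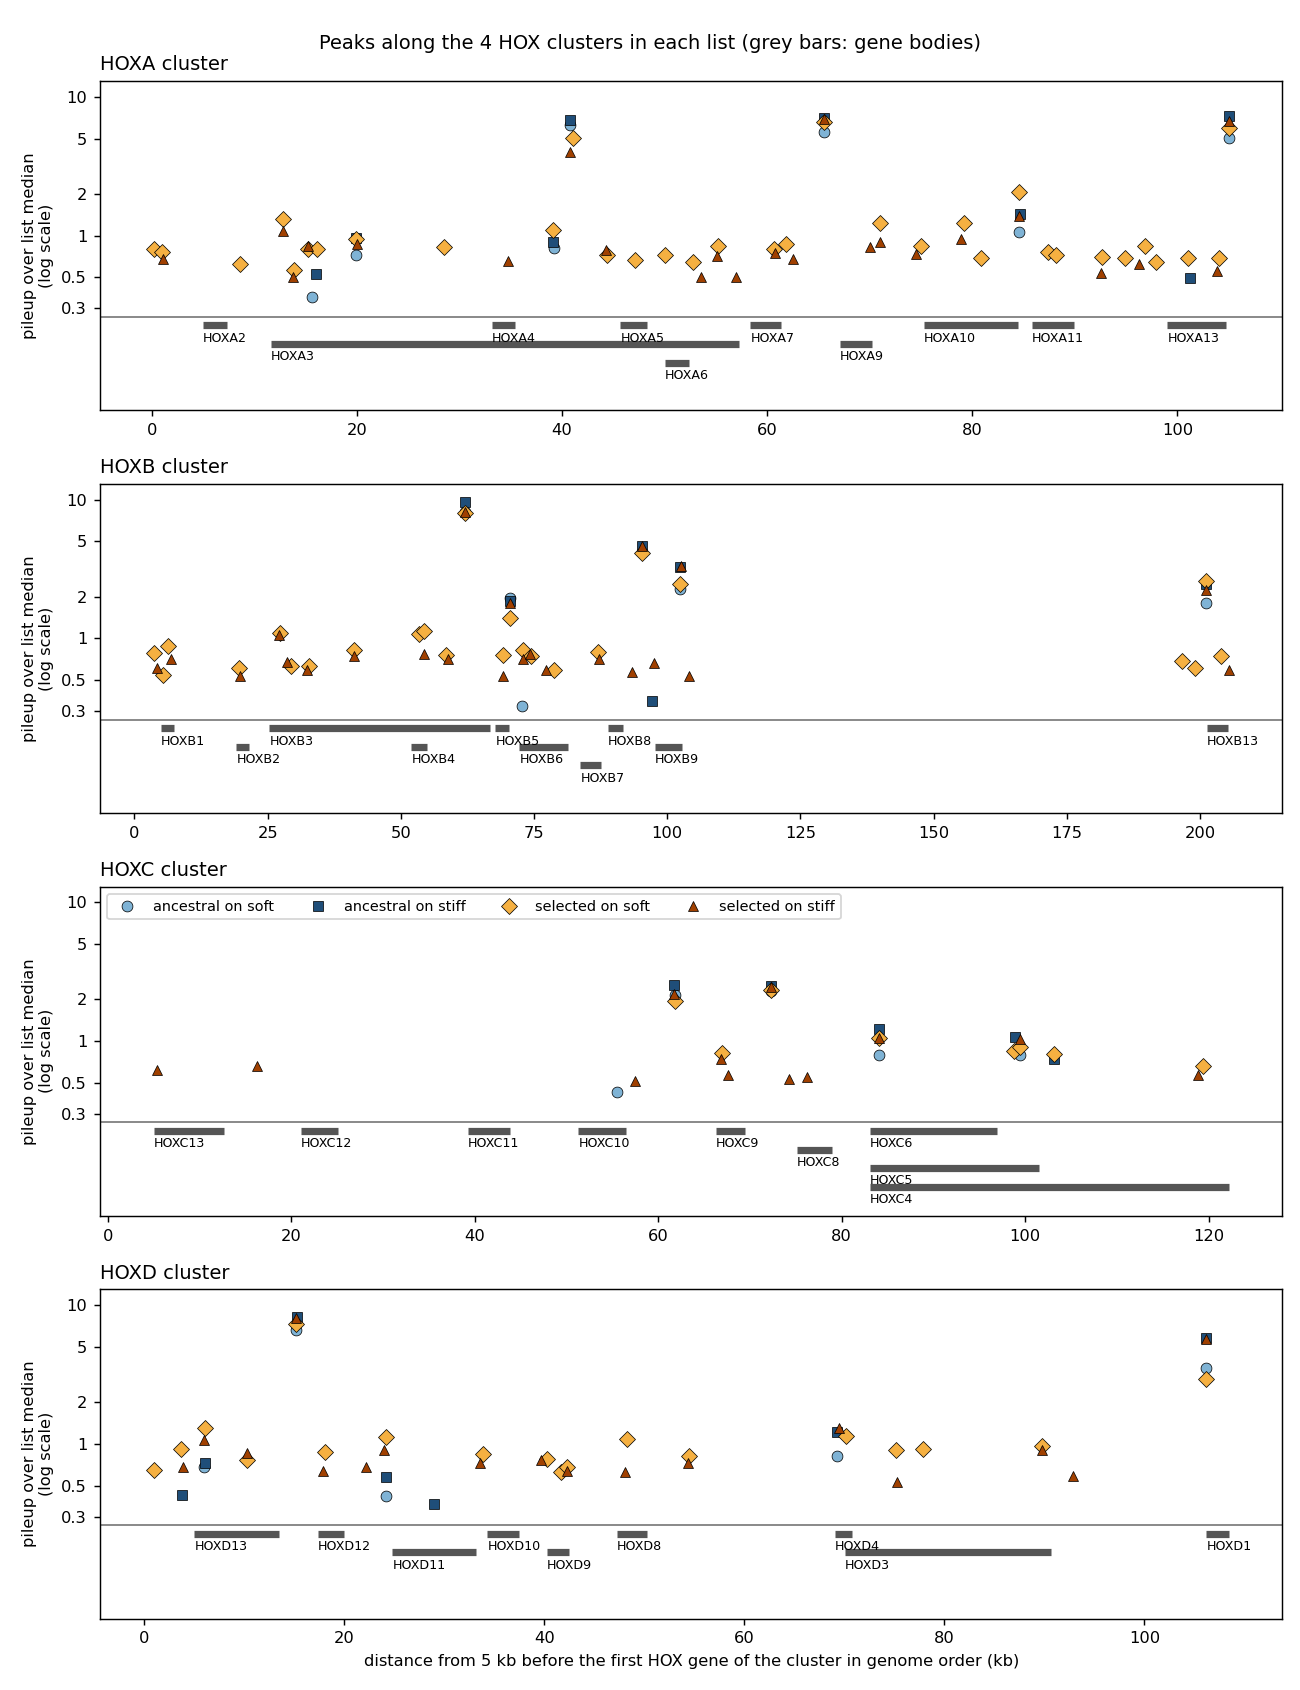
Peaks along the HOXA, HOXB, HOXC and HOXD clusters, by distance from 5 kb before the first gene (kb, horizontal) and pileup over list median (log scale, vertical), with 1 symbol per list and gene bodies as grey bars. Ancestral and selected symbols sit together at tall peaks such as that near HOXA9 (5.55 to 7.08), and the selected lists fill the stretches between with peaks near or below 1.

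Each cluster held more peaks in each selected list than in either ancestral list, when all listed peaks were counted. HOXA, which patterns limb, uterus and blood progenitors among others, held 7, 8, 33 and 23 peaks. HOXB held 6, 6, 24 and 23 peaks. HOXD, the cluster of digits and genitalia, held 5, 7, 18 and 17. HOXC, used in the thoracic and posterior trunk, hair and nails, held 5, 5, 8 and 12, the smallest rise in number of the 4 clusters on either gel. Per 100 kb, HOXC reached 6.50 in the list selected on soft and 9.75 in that selected on stiff, where HOXA reached 30.1 and 21.0. At a −log10 q of at least 10 the rise was lost in HOXC (4, 5, 4 and 4), while HOXA held 6, 8, 9 and 11, HOXB 5, 5, 8 and 6 and HOXD 4, 5, 10 and 7. Among the top peaks of each list, HOXB held 5 in every list, HOXC 2, 3, 2 and 2, HOXD 2, 3, 3 and 3 and HOXA 4, 4, 7 and 4.

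All 38 members can be placed by the peaks in their windows, as the plot of peaks per gene shows. A peak was present for 26, 25, 34 and 37 of them (68.4%, 65.8%, 89.5% and 97.4%). For other protein-coding genes the share was 86.3%, 86.9%, 86.6% and 86.6%, so the HOX share was below it in the ancestral lists, near it in selected on soft and above it in selected on stiff. The genes without one in the list ancestral on soft were HOXA2, HOXA6, HOXB1, HOXB2, HOXB4, HOXB7, HOXC11, HOXC12, HOXC13, HOXD8, HOXD9 and HOXD10, and HOXC10 joined them in ancestral on stiff. In the list selected on soft only HOXC10, HOXC11, HOXC12 and HOXC13 had none, and in selected on stiff only HOXC11, a gene of hindlimb and kidney patterning, which had none in any list. HOXA2 of the hindbrain, for example, went from 0 and 0 to 3 and 1 peaks, HOXB4 of blood stem cells from 0 and 0 to 3 and 2, and HOXD9 from 0 and 0 to 3 and 2. HOXA3, which patterns the pharyngeal glands and whose 45574 bp annotated body runs over HOXA4, HOXA5 and HOXA6, had the most with 4, 4, 16 and 11. HOXB3, with a body of 41372 bp, had 2, 2, 10 and 9. HOXC4, HOXC5 and HOXC6 share an annotated start and so share peaks, and HOXD1 had 1 peak in each list.

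**Figure D2:**
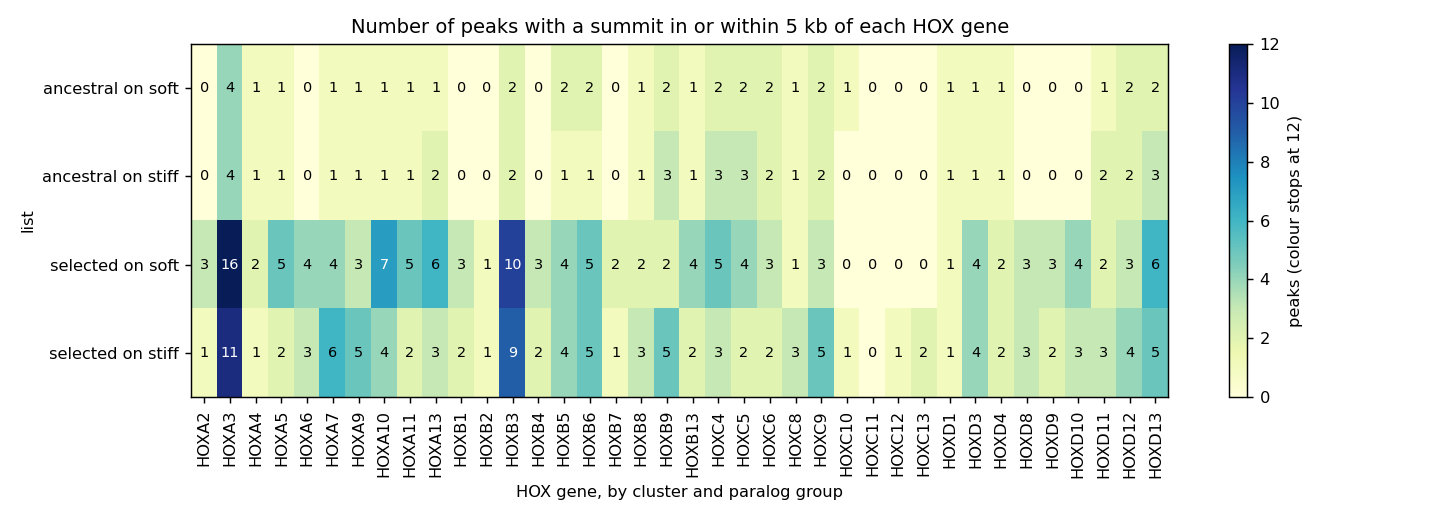
Number of peaks with a summit in or within 5 kb of each of the 38 HOX genes (columns, by cluster and paralog group) in each list (rows); numbers are printed in the cells and the colour stops at 12. The rows of ancestral lists hold 0 to 4 and those of selected lists 0 to 16, and HOXC11 is at 0 in all 4 rows.

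The same difference was seen at the gene ends. A peak that reached to within 1 kb of a start (of either annotated end where no start was given), wherever its summit lay, was present for 13, 11, 30 and 32 of the 38 HOX genes, or 34.2%, 28.9%, 78.9% and 84.2%. For the 19999 other protein-coding genes the share was 71.1%, 71.9%, 75.0% and 74.6%, and for FOX and SOX genes 52.9%, 54.3%, 74.3% and 77.1%. The HOX share was below that of other protein-coding genes in the ancestral lists and above it in the selected lists. A start was given for 20 of the 38 HOX genes, and both ends were searched for the rest. How many other genes were searched at both ends was not counted, so the shares may not be like for like. The 3 HOXD genes with an end peak in both ancestral lists were HOXD1, HOXD4 and HOXD11, and all 9 HOXD genes had one in both selected lists.

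Joining overlapping peaks (1 bp or more) gave 96 HOX regions among 164016 regions of the genome. A peak in all 4 lists was found in 19 (19.8%, exact binomial 95% interval 12.4 to 29.2, counting error only), against 43.7% of all regions. A peak in the 2 selected lists but in no ancestral list was found in 37 (38.5%, 28.8 to 49.0), against 9.72% of all regions, 8.41% of the 2805 regions in the 5 Mb around the clusters and 17.4% of 367 FOX and SOX regions. A further 19 were in selected on soft alone (19.8%, background 13.1%) and 12 in selected on stiff alone (12.5%, background 5.63%), so 68 of 96 (70.8%, background 28.5%) had a selected peak and no ancestral one. In the other direction, 2 of 96 had an ancestral peak and no selected one (background 14.5%), and none had a peak in both ancestral lists alone (background 6.39%). The 2 were a peak in HOXC10 at chr12:53989121-53989420 in ancestral on soft (0.432 of the median) and one in HOXD11 at chr2:176111392-176111668 in ancestral on stiff (0.371).

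**Figure D3:**
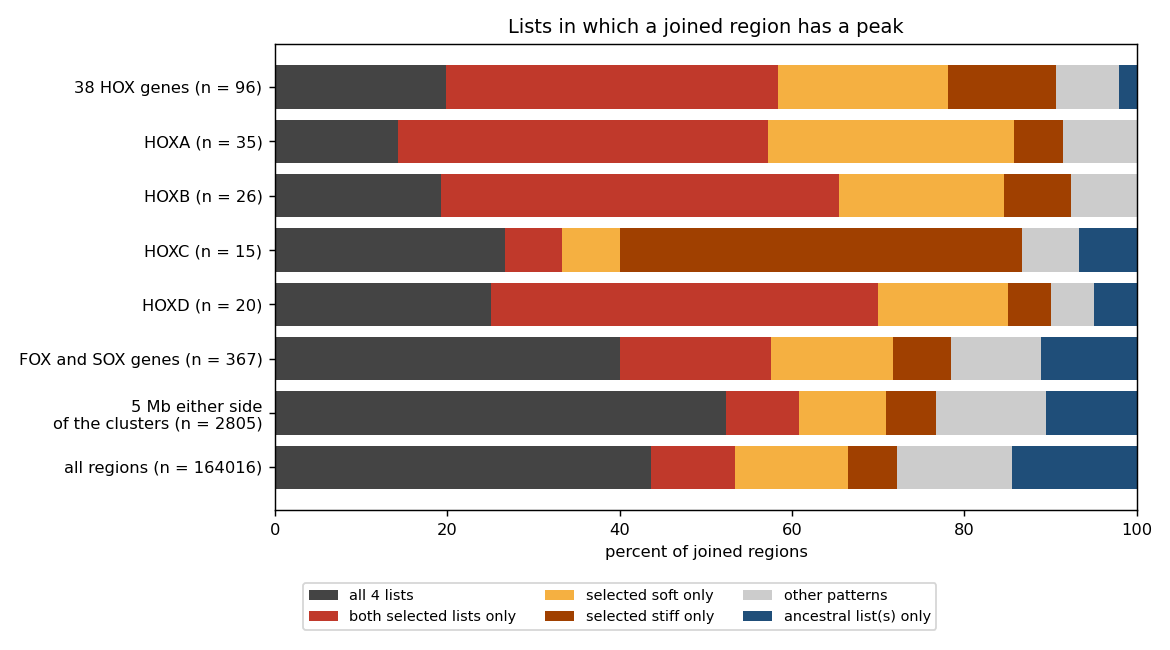
Percent of joined regions (horizontal) by the lists in which they have a peak, for the HOX genes together, each cluster, FOX and SOX genes, the 5 Mb on either side and all regions. The share in both selected lists only is 38.5% for HOX genes and 9.72% for all regions, and selected on stiff alone holds 46.7% of HOXC regions and 5.63% of all regions.

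By cluster, regions in both selected lists only numbered 15 of 35 in HOXA, 12 of 26 in HOXB, 9 of 20 in HOXD and 1 of 15 in HOXC, the last in HOXC9. In HOXC 7 of 15 regions were in selected on stiff alone (46.7%, interval 21.3 to 73.4), against 5.63% of all regions and 6.21% in the HOXC flanks. By position, regions with a selected and no ancestral peak made up 41 of 54 nearest to paralog groups 1 to 8, the anterior and central genes, and 27 of 42 at groups 9 to 13, the posterior genes. The first set is not divided further, because the long HOXA3 and HOXB3 annotations run past central genes and take up regions next to them. The posterior genes held 10 of the 19 regions present in all lists, and 11 of those 19 lay outside gene bodies, whereas 28 of the 37 regions in both selected lists only lay inside one. The summits of the 4 lists fell within 100 bp of each other in 12 of the 19 regions, with a median spread of 55 bp. Those of the 2 selected lists did so in 12 of the 37, with a median of 182 bp. For position and spread no share over all regions is at hand, and spreads of 4 and of 2 summits are unlike measures.

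The regions in both selected lists only were shallow throughout. Their pileup over list median ranged from 0.569 to 1.31 (median 0.804) in selected on soft and from 0.500 to 1.07 (median 0.714) in selected on stiff, close to the genome's regions of the same kind (medians 0.765 and 0.643). The strongest lay inside HOXA3 at chr7:27107786-27108668, with 1.31 and 1.07 (pileups of 67 and 60) and summits 2 bp apart. The next was the inner HOXA10 start printed above, at chr7:27173788-27174967, with 1.24 and 0.946 (63 and 53); HOXA10 is needed in the uterus for implantation. The third lay in HOXB3, under the antisense gene HOXB-AS1, at chr17:48550075-48552459 with 1.1 and 1.05 (56 and 59). No peak was listed at any of the 3 in either ancestral list. HOXB3 and its antisense neighbour cannot be told apart from a peak.

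A region can be missing from a list because its signal was below what the list reports. On soft gel, 59 HOX peaks were in the selected list with no ancestral peak. Of these, 54 (91.5%) had a pileup above 31, the lowest in the ancestral list, against 82.2% of all selected-only regions. The median pileup of the 59 was 39, against 36 over all selected-only regions. Of the 50 on stiff, 24 (48%) were above the ancestral minimum of 37, against 32.7% of all selected-only regions. The median pileup of the 50 was 37, against 34. All 59 and all 50 were above the lowest fold enrichment over background in the ancestral list, 1.85 and 1.79. This was fixed in advance and tells nothing of HOX peaks, because no peak in the selected lists was below 1.93 and 1.98. With only peaks of a pileup of at least 37 kept in every list, a setting added after seeing the data, 24 of 66 HOX regions (36.4%) were in both selected lists only, against 4.60% of all regions. At a −log10 q of at least 10, 5 of 37 were (13.5%, against 4.37%), and among the 54789 top peaks of each list none of 19 (against 5.62%).

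**Figure D4:**
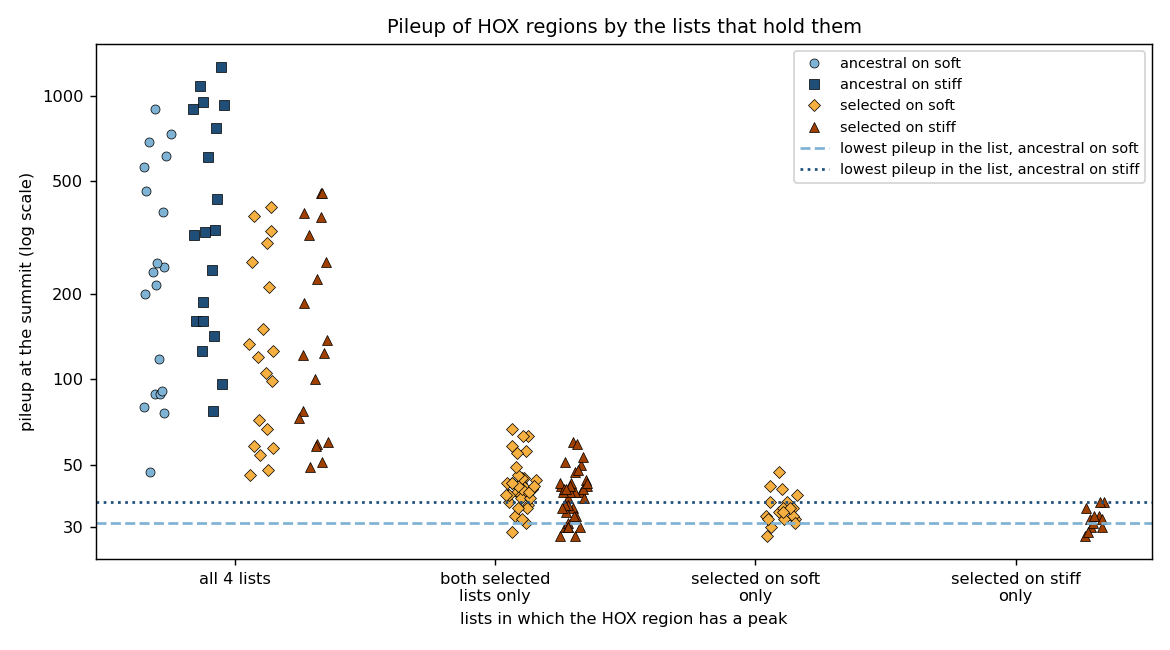
Pileup at the summit (log scale, vertical) of HOX regions grouped by the lists that hold them (horizontal), with 1 point per region and list and lines at the lowest pileup of the ancestral lists, 31 and 37. Points of regions in selected lists only lie between 28 and 67, around the lines, and those of regions in all 4 lists between 46 and 1263.

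In each cluster, the region with the highest mean over the 4 lists stood at a similar height over the median in all 4 lists. Regions chosen by the mean were not the tallest in every list. In ancestral on soft, a region between HOXA4 and HOXA5 had 6.23, against 5.55 for the HOXA region chosen. In ancestral on stiff, the HOXA13 start had 7.23, against 7.08, and a region near HOXC9 had 2.55, against 2.52 for the HOXC region chosen. The highest region of HOXA lay between HOXA7 and HOXA9 at chr7:27159944-27161462, with 5.55, 7.08, 6.57 and 6.91 times the list median and the same summit base, 27160909, in all 4 lists. The highest of HOXB lay under the long HOXB3 annotation, between HOXB4 and HOXB5, at chr17:48585038-48586459, with 8.13, 9.57, 7.96 and 8.11. The highest of HOXD lay between HOXD13 and HOXD12 at chr2:176096439-176099204, with 6.60, 8.23, 7.37 and 8.12. HOXC had lower peaks, the highest between HOXC9 and HOXC8 at chr12:54005079-54006532 with 2.32, 2.52, 2.35 and 2.46. The highest of the 4 values exceeded the lowest by 1.28, 1.20, 1.25 and 1.09 times in these regions, and none passed a 1.5-fold difference in any comparison on this scale. Scaled to the list background, the selected to ancestral ratios of the 4 regions were 0.658, 0.545, 0.621 and 0.565 on soft gel, all past 1.5-fold lower, and 0.665, 0.577, 0.672 and 0.667 on stiff, where 3 were. Other tall regions were less even: the highest value exceeded the lowest by 1.70 times in a region between HOXA4 and HOXA5 and by 1.99 times at HOXD1, both described below.

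At gene starts open in all lists, HOXA13, a gene of distal limb and hindgut, had 5.06, 7.23, 5.96 and 6.66 at chr7:27199950-27201948, over the start printed above. HOXD1, active in pain-sensing neurons, had 3.52, 5.85, 2.94 and 5.75 at chr2:176187280-176190386, also under the long noncoding gene HAGLR. The HOXD1 values fell into 2 levels, with both soft lists low and both stiff lists high. HOXB9, a trunk gene, had 2.25, 3.28, 2.47 and 3.32 in its body, and HOXB13, a marker of prostate and hindgut, 1.80, 2.45, 2.61 and 2.21 at its end. The lowest regions of this kind, with a mean over the lists below 1, were one before HOXD11 (0.423, 0.583, 1.12 and 0.911), one in HOXA3 (0.721, 0.955, 0.941 and 0.875), one in HOXD13 (0.685, 0.727, 1.31 and 1.07) and one in HOXC5 (0.802, 1.08, 0.902 and 1.04). The HOXD11 and HOXD13 regions were higher in each selected list than in the ancestral lists, while in the HOXA3 and HOXC5 regions ancestral and selected values overlapped.

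**Figure D5:**
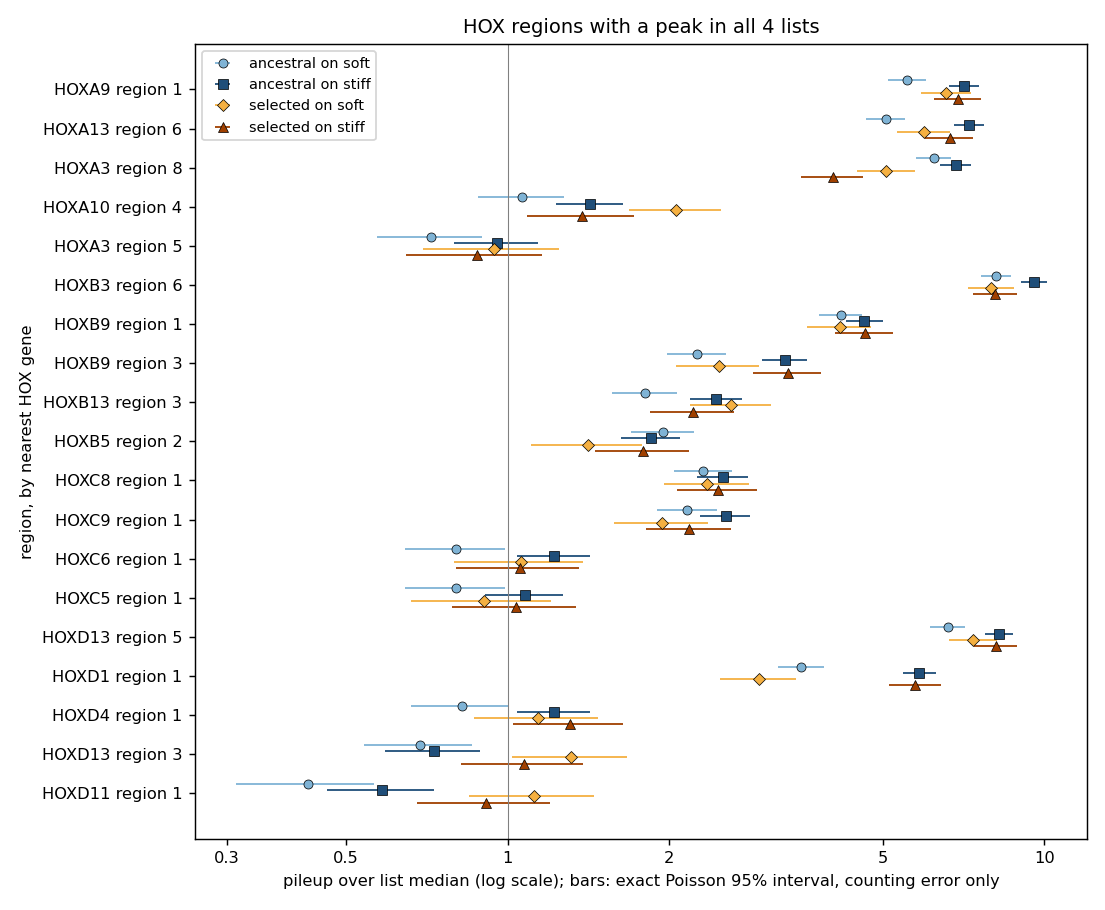
Pileup over list median (log scale, horizontal) of the 19 HOX regions with a peak in all 4 lists (rows, named by nearest gene), with 1 symbol per list and exact Poisson 95% intervals that cover counting error only. HOXD1 splits by stiffness (3.52 and 2.94 on soft, 5.85 and 5.75 on stiff), and HOXD11 region 1 has its 2 selected values above its 2 ancestral ones.

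On soft gel, selected cells were compared with ancestral cells, the comparison named in the study's design text. Of 82 HOX regions in either list, 59 had a peak in the selected list only (72.0%, 60.9 to 81.3), against 30.2% of all regions, and 1 in the ancestral list only (1.22%), against 15.2%. In the 5 Mb flanks the selected-only share was 25.9%. Among the 22 regions in both lists the ratio of pileup over median had a median log2 of 0.24, against 0.15 for all regions. It was at least 1.5-fold higher in selected cells in 5 of 22 (22.7%, background 26.0%) and at least 1.5-fold lower in none (background 7.94%); neither share stands far from its background. The interval of the ratio lay above 1 in 8, below 1 in 2 and covered 1 in 12. The 3 largest were the region before HOXD11 at chr2:176103979-176107274, a gene of forearm and kidney (ratio 2.64, interval 1.76 to 3.97), one in HOXB6 at chr17:48595977-48596852 (0.324 and 0.824, ratio 2.54, 1.59 to 4.08) and one in HOXA3 at chr7:27110878-27111672 (0.36 and 0.804, ratio 2.23, 1.41 to 3.54), whose summits lay 491 bp apart. All 3 ancestral pileups were 36 to 47. With pileups divided by the estimated background of each list, 16.3 and 13.5, in place of the median, none of the 22 was 1.5-fold higher and 12 were lower, so the direction in the shared regions rests on the scale.

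On stiff gel, 50 of 76 HOX regions had a peak in the selected list only (65.8%, 54.0 to 76.3), against 20.8% of all regions and 17.4% in the flanks, and 5 in the ancestral list only (6.58%, background 17.4%). Among 21 regions in both lists the median ratio was 0.977 against 0.998 for all regions, with the interval above 1 in 4, below in 2 and covering 1 in 15. It was 1.5-fold higher in selected cells in 3 (14.3%, background 18.8%): a region beside HOXB9 at chr17:48620468-48621038 (0.356 and 0.661, ratio 1.86, 1.17 to 2.92, summits 302 bp apart), one before HOXD13 at chr2:176085285-176086452 (0.432 and 0.679, ratio 1.57, 1.01 to 2.41) and the region before HOXD11 (ratio 1.56, 1.07 to 2.25). It was 1.5-fold lower in 1 (4.76%, background 11.2%), a tall region under the HOXA3 annotation, between HOXA4 and HOXA5, at chr7:27135628-27137031 with 6.23, 6.84, 5.08 and 4.04 (ratio 0.59, 0.51 to 0.68). Scaled to the list background, none of the 21 was higher and 12 were lower, and the ratio of that tall region was 0.40. The HOXD11 region was thus past 1.5-fold in both comparisons, which share no list, on the median scale and on neither gel on the background scale (1.47 and 1.06). The region beside HOXB9 was also the single HOX region that had a peak in the 2 stiff lists alone.

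Soft against stiff gel in ancestral cells, few HOX regions differed by 1.5-fold, though shared regions were mostly somewhat lower on soft. Of 28 regions, 2 were in the soft list only (7.14%, background 8.09%) and 5 in the stiff list only (17.9%, background 14.0%). Among 21 in both, the median log2 ratio was -0.41, against -0.19 for all regions, and the interval of the ratio lay below 1 in 11, above 1 in none and covered 1 in 10. None was 1.5-fold higher on soft (background 1.19%). The 2 that were lower (9.52%, background 8.87%) were HOXD1 (ratio 0.60, 0.53 to 0.68) and a region past the shared start of HOXC4, HOXC5 and HOXC6, inside the gene bodies, at chr12:54017194-54018689 (0.802, 1.22, 1.06 and 1.05, ratio 0.66, 0.50 to 0.86). Scaled to peaks in regions of all 4 lists, which have median pileups of 180 and 245, these ratios were 0.69 and 0.75 and neither passed.

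In selected cells, 23 of 94 HOX regions were in the soft list only (24.5%, background 19.7%) and 13 in the stiff list only (13.8%, background 12.6%). Of 58 in both, the ratio interval covered 1 in 52, lay above it in 4 and below it in 2, and the median log2 ratio was 0.17 against 0.03 for all regions. Higher on soft by 1.5-fold were 2 (3.45%, background 3.95%), in HOXD8 at chr2:176130515-176131153 (1.08 and 0.625, ratio 1.73, 1.11 to 2.72) and in HOXD3 at chr2:176156750-176158091 (0.902 and 0.536, ratio 1.68, 1.04 to 2.76). Lower was 1 (1.72%, background 3.76%), HOXD1, with pileups of 150 and 322 (ratio 0.51, 0.42 to 0.62). HOXD1 was the single HOX region lower on soft by 1.5-fold in both populations, whose comparisons share no list; its ratio in selected cells was 0.44 and 0.50 on the other 2 scales.

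Several miRNA genes sit in the clusters and some of them repress HOX messages. The hairpins MIR196B, in HOXA, and MIR196A2, in HOXC, were each overlapped by a peak in the list selected on stiff only, with 0.732 and 0.518 of the median (pileups of 41 and 29). At MIR196B the list selected on soft had a peak in the same joined region, chr7:27169287-27170451, that did not reach the hairpin. Their mature 5′ arms, from RefSeq, share the seed in capitals (bases 2 to 8) and are shown because the 2 loci lie on different chromosomes.
hsa-miR-196b-5p: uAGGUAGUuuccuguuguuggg
hsa-miR-196a-5p: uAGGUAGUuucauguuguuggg
MIR10A, MIR10B and MIR615 had no peak over them in any list, and MIR7704 and MIR3185 lay in the HOXD1 and HOXB13 regions open in all 4.

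Genes that act with or upstream of HOX proteins were open in nearly all lists. Of 57 listed genes, 52 could be judged, and 44, 44, 48 and 48 of them had a peak within 1 kb of the start. All 8 judged TALE cofactors (PBX, MEIS and PKNOX genes, whose proteins bind DNA together with HOX), all 15 Polycomb genes and all 12 trithorax genes had one in each list. Presence did not mean equal height: PBX3 had 1.27, 25.3, 0.745 and 1.45 times the list median, far higher in ancestral on stiff than elsewhere. On soft gel the selected to ancestral ratio passed 1.5-fold upward in 2 of 44 and downward in 4, and on stiff in 1 and 2. Over all regions the shares were 26.0% and 7.94% on soft and 18.8% and 11.2% on stiff. The gene ratios are of the strongest peak near a start, whereas all regions include weak peaks far from genes, so the 2 are not like for like. EZH2, the Polycomb methyltransferase, had 10.3, 15.7, 6.84 and 14.4 times the list median, and KMT2A, the MLL methyltransferase, 15.1, 16.3, 12.4 and 18.8. The 8 genes without a start peak in both ancestral lists were all developmental: CDX1, CDX2, CDX4, CYP26C1, EVX1, EVX2, GSX1 and PDX1. Of these, CDX1, which switches on HOX genes in the posterior embryo, had 0.882 and 0.875 in the selected lists, CYP26C1, which breaks down retinoic acid, 0.980 and 1.43, and EVX1, the homeobox gene next to HOXA, 1.35 and 0.982. EVX2 had a peak in selected on soft alone (0.647) and PDX1 in selected on stiff alone (0.571), while CDX2, CDX4 and GSX1 had none in any list. The same share over all genes without an ancestral start peak is not at hand. The higher values of CYP26C1 and EVX1 were above the strongest HOX region in both selected lists only (1.31).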

How the data were processed

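The authors deposited 1 MACS2 peak list per group of 4 samples. Per the submitters' processing notes, Trimmomatic 0.36, Bowtie2 2.4.5 and MACS2 2.2.7.1 were used with build GRCh38; the step that made 1 list from 4 libraries is not given in the sources used here. Per the file headers, each peak has a summit, a pileup count (whole numbers, not scaled for depth), a fold enrichment over local background (a ratio) and a −log10 q-value. Depth per library is unknown.

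Computed here (Python 3.11.15, pandas 2.3.3, numpy 2.4.6, scipy 1.17.1) were pileup over list median, joined regions, presence by list, ratios past 1.5-fold, exact binomial and Poisson 95% intervals that cover counting error only, and a list background from pileup and fold enrichment. The joining and ratios were checked on simulated data from the list ancestral on soft, where 200 of 200 removed peaks and 200 of 200 peaks raised 3-fold were recovered among 109578. The simulated list kept the same peak coordinates, so it cannot show how joining fares where peaks differ in summit or length. Each list skips about 1% of its peak numbers (1107 to 1311); no HOX window holds a skipped number, and 5 pathway genes with one at the start were left out.

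All HOX genes are counted. Values are given for the region of highest mean over the lists in each cluster, the 3 largest ratios past 1.5-fold per comparison and direction, and the 3 strongest regions present in 1 population or on 1 stiffness only. The members and lists were chosen with earlier results of these data known.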

Additional observations from a re-analysis of the deposited data

Results flagged for a closer look

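Among regions with a value in both paired comparisons, 2 HOX regions moved past 1.5-fold in one comparison and to the other side of 1 in its pair; with 1 list per group the difference between comparisons was not tested. The outer start of HOXA10 was 1.94-fold higher in selected cells on soft gel and at 0.97 on stiff gel. The region past the shared start of HOXC4, HOXC5 and HOXC6, inside the gene bodies, was at 0.66 on soft against stiff in ancestral cells and at 1.00, with both values close to 1.05, in selected cells.

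A pair of regions had a peak listed in ancestral on stiff and selected on soft and in no other list. The other lists give no value there, so no direction with stiffness can be stated, and nothing was tested. One lay in HOXA13 at chr7:27196185-27196638, with 0.49 of the list median in ancestral on stiff and 0.69 in selected on soft. The other lay in HOXC4 at chr12:54036663-54037129, with 0.74 and 0.80.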

How the results depend on the processing

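No paired analysis was possible because each group has 1 deposited list with no values per replicate; leaving out replicates was not run for the same reason. Of 120 recomputed counts and medians, 67 stayed within 1.5 times the reported value (medians also within its 95% interval) and 53 moved. HOX peaks (23, 26, 83 and 75) numbered 12, 13, 56 and 45 in gene bodies alone, 19, 23, 31 and 28 at a −log10 q of at least 10, and 13, 15, 17 and 14 among the 54789 top peaks of each list. In gene bodies alone the ancestral median pileup over list median (1.80 and 1.32) was 0.802 and 0.955 and the median length on stiff 743 bp, and within 2 kb the median pileup on soft was 0.941. At that q the median length in the selected lists was 1184 and 1110 bp and the median pileup over list median 1.24 and 1.19. Divided by list background, the median HOX pileup was 12.3, 8.63, 3.12 and 3.17, and divided by the median of peaks in regions of all 4 lists 1.11, 0.712, 0.483 and 0.426. Without windows around skipped peak numbers the HOX counts of regions in 1 list only were as reported.

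In the order selected against ancestral on soft, on stiff, and soft against stiff in ancestral and in selected cells, regions in the first list only (59, 50, 2 and 23) fell to 10, 8, 0 and 2 at that q, and to 39, 26, 1 and 16 with the common lowest pileup of 37, which was added after seeing the data. Regions in the second list only (1, 5, 5 and 13) fell to 0, 4, 2 and 0 at that q, and the last to 3 with the common lowest pileup. Joining within 500 bp moved 1 of these counts past 1.5 times, 23 to 14. Regions in both selected lists only (37) were 5 at that q, 0 among top peaks and 24 with the common lowest pileup.

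The list background moved all ratios by -0.85, -0.56, 0.06 and -0.23 on the log2 scale. It left 0, 0, 0 and 0 regions at least 1.5-fold higher and 12, 12, 1 and 2 lower (median scale 5, 3, 0 and 2 higher, 0, 1, 2 and 1 lower). Peaks of regions in all 4 lists as the scale moved ratios by -0.07, 0.15, 0.19 and -0.02 and left 0 of the 2 lower in ancestral cells. At 2-fold, 3 regions were higher in selected than in ancestral cells on soft, and 0 were called in the other 3 comparisons. The cause of these shifts was not tested. The lists give no depth per library, so absence of a HOX peak means only that none was listed.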
